A study of Mus musculus with 26 samples.

Results

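Her2-positive, EpCAM-negative tumour cells that had grown for 20 days in mice depleted of T cells were set against the cultured line from which the tumours had been started. The comparison rests on 8 of the 26 libraries, 6 from the sorted tumour cells and 2 from the culture, chosen by their sample titles. E-A14 is a mouse mammary tumour line of the FVB/N strain that expresses Her2, and the count table carries a separate entry for the rat Neu transgene. Mice of the same strain, aged 6 to 8 weeks, received the cells in a mammary fat pad. These mice had received 100 µg of anti-CD4 and 100 µg of anti-CD8a antibody 2 times a week, beginning 2 weeks before the cells were implanted. Such antibodies remove the T cells that carry CD4 or CD8. Tumours were digested with collagenase and DNase I for 30 min at 37 °C, the sort left out dead cells and those stained for CD45, CD90 or CD105, and Her2-positive cells without EpCAM were collected. The cultured cells were taken as a suspension, and their labels name no digestion, no sort and no mouse. As far as the labels say, implantation, digestion, staining and sorting differ together between the groups, and their parts in any difference cannot be told apart. A further 6 libraries of Her2-positive, EpCAM-positive cells of depleted tumours at day 20 and 6 of Her2-positive, EpCAM-negative cells from mice given rat IgG2a and IgG2b, taken at day 47, serve below to show where these cells differ from their neighbours. All groups derive from 1 line, and the labels do not say whether the 2 cultures were grown separately, so that their spread may be technical.

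Epithelial cells are held together by E-cadherin, tight junctions and desmosomes, and their shape is carried by keratins. In an epithelial-mesenchymal transition, transcription factors of the ZEB and SNAIL families repress junction genes, and vimentin, fibronectin and collagens are made instead. In mammary tumours, EpCAM, an adhesion protein of epithelial cells, is widely used to part the epithelial from the mesenchymal tumour cells.

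Promoter sequences of 5 genes whose levels differed between the tumour cells and the culture are given with 4 motifs in capitals. Each window runs from 250 bases before to 50 bases after the annotated start and comes from RefSeq on GRCm38.p6, a later build than the mm9 used for the counts. CAGGTG (which reads CACCTG on the other strand) is the E-box bound by ZEB and SNAIL factors and is marked in Epcam and in Rab25, which encodes a small GTPase that recycles membrane proteins in epithelia. TTTGAA (which reads TTCAAA on the other strand), an element of genes active in mitosis, and CCAAT (which reads ATTGG on the other strand), the element bound by NF-Y, are marked in Cdk1, the kinase that starts mitosis. TGATGNAA (which reads TTNCATCA on the other strand), where N is any base, is the element bound by ATF4 with C/EBP proteins in amino acid stress. It is marked in Slc7a11, the cystine transporter, and in Gars, the glycyl-tRNA synthetase. The windows lie at chr17:87635729-87636028 (Epcam, plus strand), chr3:88548230-88548529 (Rab25, minus strand), chr10:69352863-69353162 (Cdk1, minus strand), chr3:50443564-50443863 (Slc7a11, minus strand) and chr6:55037751-55038050 (Gars, plus strand).
Epcam: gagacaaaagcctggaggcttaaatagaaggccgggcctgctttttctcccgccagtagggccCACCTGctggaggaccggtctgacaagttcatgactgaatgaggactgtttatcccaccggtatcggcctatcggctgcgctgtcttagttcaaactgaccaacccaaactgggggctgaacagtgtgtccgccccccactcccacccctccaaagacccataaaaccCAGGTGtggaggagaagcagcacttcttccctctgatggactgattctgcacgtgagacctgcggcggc
Rab25: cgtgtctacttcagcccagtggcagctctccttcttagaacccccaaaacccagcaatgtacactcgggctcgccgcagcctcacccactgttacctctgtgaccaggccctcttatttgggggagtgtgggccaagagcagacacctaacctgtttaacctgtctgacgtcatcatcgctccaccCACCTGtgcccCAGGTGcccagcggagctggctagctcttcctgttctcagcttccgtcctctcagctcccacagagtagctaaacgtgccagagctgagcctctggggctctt
Cdk1: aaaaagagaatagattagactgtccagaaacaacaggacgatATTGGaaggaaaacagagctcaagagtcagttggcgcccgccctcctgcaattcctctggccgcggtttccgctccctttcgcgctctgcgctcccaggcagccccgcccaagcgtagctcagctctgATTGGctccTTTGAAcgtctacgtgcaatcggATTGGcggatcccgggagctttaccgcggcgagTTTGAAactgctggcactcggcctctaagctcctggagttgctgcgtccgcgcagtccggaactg
Slc7a11: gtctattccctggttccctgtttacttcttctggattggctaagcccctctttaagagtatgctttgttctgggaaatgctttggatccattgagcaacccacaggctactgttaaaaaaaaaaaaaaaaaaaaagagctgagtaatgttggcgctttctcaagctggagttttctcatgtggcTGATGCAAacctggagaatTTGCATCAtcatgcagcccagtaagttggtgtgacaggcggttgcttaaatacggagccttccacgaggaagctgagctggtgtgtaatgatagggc
Gars: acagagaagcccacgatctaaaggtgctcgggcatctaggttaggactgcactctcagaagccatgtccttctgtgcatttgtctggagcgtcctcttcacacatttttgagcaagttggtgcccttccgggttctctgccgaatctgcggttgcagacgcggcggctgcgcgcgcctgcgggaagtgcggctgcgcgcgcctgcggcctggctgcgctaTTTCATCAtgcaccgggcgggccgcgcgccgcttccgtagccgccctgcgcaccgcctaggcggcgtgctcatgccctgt

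Both strands were searched, and Epcam and Rab25 each hold 2 copies of the E-box. Of the 40 epithelial genes described below, 23 have a window, and 17 of these (73.9%) hold it. This stands against 22.6% of the windows of 27025 genes and 21.4% of those of 11456 genes tested here. Of the 19 with a window that were lower in the tumour cells than in culture, 14 (73.7%) hold it, a share near that of all 23. Of 26 mitotic genes with a window, 20 (76.9%) hold TTTGAA or its complement, against 20.2% of all windows. CCAAT was found in 22 of those 26 (84.6%), against 41.1% of all windows. Of 30 genes of amino acid and unfolded protein stress with a window, 10 (33.3%) hold TGATGNAA or its complement, against 4.51% of all windows. These are matches of letters, and no binding was measured.

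Levels are given as CPM, read counts scaled to library sizes that were adjusted by TMM. A gene was called higher or lower at an adjusted p under 0.05 in edgeR's quasi-likelihood test with Benjamini-Hochberg adjustment over 16637 features, fitted to all 26 libraries. Log2 fold changes are given with their standard error. The 6 EpCAM-negative libraries held 18297292 to 23978966 counts and the 2 cultures 27253363 and 35059744. In the tumour cells 3628 genes (21.8%) were higher and 3424 (20.6%) lower than in culture, and the median log2 fold change of all genes was 0.09. A log2 fold change of 1 or more was reached by 2057 of the higher genes (12.4% of those tested), and −1 or less by 1587 of the lower ones (9.54%). Every tumour library lay above both cultures for 3777 genes (22.7%) and below both for 3999 (24.0%). Without culture 1, with the other culture assumed to vary like the other groups, 2316 genes were higher and 2525 lower. In bulk samples, fewer cells of a type and less RNA per cell cannot be told apart.

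Among the largest increases were genes for matrix and membrane proteins that the culture hardly expressed. Col5a3, a fibril-forming collagen chain, ran at 129.8 to 200.3 CPM (median 170.0) in the tumour cells, against 0.0962 and 0.0512 CPM in the cultures, which was higher by 2324-fold (95% counting interval 996 to 7157). Ret, the receptor tyrosine kinase of the GDNF family, ran at 3.97 to 19.4 CPM (median 17.4) in the tumour cells and had no count in either culture, so that it was at least 157-fold higher, with the floor of 3 counts taken per library. Neither gene overlapped between the groups. Itgb3, the integrin β3 subunit that pairs with αv to bind fibronectin and osteopontin, ran at 56.3 to 139 CPM (median 127), against 0.0641 and 0.153 CPM in the cultures (log2 fold change 9.85 ± 0.65, adjusted p = 7.91e-12, and 10.59 without culture 2). Aqp1, a water channel, ran at 149 to 269.7 CPM (median 176), against 0.513 and 0.102 CPM (log2 fold change 9.34 ± 1.33, adjusted p = 2.55e-06, and 10.79 and 8.48 without cultures 1 and 2). The cultures were near 0 for all 4, so that the size of each change depends on a few reads. Mmp12, Otop1, Cxcl14, Slitrk6 and Adamts8 each had 1 count in the cultures together. Without the culture that held it they were at least 139-fold (Slitrk6) to at least 256-fold (Mmp12) higher. C1qa, given below beside the macrophage markers, was also among the largest increases. Mmp12 and C1qa were both highest in tumour library 1, as was the sum of macrophage markers. The part of host cells in these levels was not tested.

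The largest decreases were of genes expressed in culture that were nearly silent in the tumour cells. Reep6, a protein of the endoplasmic reticulum membrane, ran at 0.119 to 0.789 CPM (median 0.518) in the tumour cells, against 79.1 and 60.6 CPM in the cultures (log2 fold change −7.10 ± 0.46, adjusted p = 7.34e-12). Mal2, which carries proteins to the apical surface of epithelial cells, ran at 0.0436 to 1.11 CPM (median 0.545), against 47.7 and 54.6 CPM (log2 fold change −6.47 ± 0.63, adjusted p = 7.19e-09). Atp6v1c2, a subunit of the vacuolar proton pump, ran at 0 to 0.842 CPM (median 0.325), against 29.9 and 29.4 CPM (log2 fold change −6.41 ± 0.60, adjusted p = 3.97e-09). No tumour library reached either culture for any of these. Wnt7a, a secreted Wnt ligand, ran at 0 to 0.556 CPM (median 0.102), against 67.9 and 68.0 CPM (log2 fold change −8.31 ± 0.79, adjusted p = 3.52e-08, and −9.03 without tumour library 5). Tmprss2, an epithelial serine protease, ran at 0 to 1.38 CPM (median 0.23), against 39.05 and 46.4 CPM (log2 fold change −6.65 ± 0.59, adjusted p = 1.57e-09, and −7.55 without tumour library 3). Both were again separated from the cultures in every library. Stc2, the secreted glycoprotein stanniocalcin-2, had no count in any tumour library and 8.69 and 9.29 CPM in the cultures, at least 56.9-fold lower.

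Genes whose proteins defined the sort were read first. Epcam ran at 40.0 to 284 CPM (median 136) in the tumour cells, against 811 and 771 CPM in the cultures (log2 fold change −2.49 ± 0.34, adjusted p = 1.53e-06). The gate selected on its protein, so this level describes the sort. It was above 0 in every tumour library, highest in library 1, and all 6 lay below the cultures. The rat Neu entry ran at 312 to 640.3 CPM (median 454), against 517 and 588 CPM (log2 fold change −0.30 ± 0.21, adjusted p = 0.256), and the groups overlapped. Mouse Erbb2, which can share reads with the transgene, ran at 63.5 to 80.1 CPM (median 70.3), against 94.8 and 93.7 CPM (log2 fold change −0.41 ± 0.12, adjusted p = 0.00883, and 0.0704 without culture 1). Ptprc, which encodes CD45, ran at 1.07 to 7.27 CPM (median 5.27) in the tumour cells and had no count in the cultures, at least 50.4-fold higher. Thy1 (CD90) ran at 0 to 0.148 CPM (median 0.0251) and had no count in culture, and Eng (CD105) ran at 1.35 to 1.92 CPM (median 1.69), against 1.12 and 0.768 CPM.

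Genes of epithelial identity were lower in the tumour cells as a group. Keratins and desmosomal genes were not by calls and median, although their summed level was lower. Of 40 epithelial genes tested, 32 fell and 3 rose, with a median log2 fold change of −3.09. Cdh1, E-cadherin, ran at 46.4 to 138 CPM (median 89.8), against 428 and 486 CPM (log2 fold change −2.34 ± 0.24, adjusted p = 1.69e-08). Rab25 ran at 3.27 to 15.3 CPM (median 6.59), against 124 and 110 CPM (log2 fold change −3.96 ± 0.30, adjusted p = 9.55e-11). Lsr, a component of tricellular junctions, ran at 2.53 to 12.4 CPM (median 5.59), against 79.0 and 71.2 CPM (log2 fold change −3.61 ± 0.31, adjusted p = 1.12e-09). Every tumour library was below both cultures for these 3, and tumour library 1 was the highest of the 6 for each. Cldn4, a tight junction claudin, spread widely, at 1.83 to 70.3 CPM (median 12.2), against 304 and 311 CPM (log2 fold change −3.96 ± 0.65, adjusted p = 2e-05, and −5.03 without tumour library 1). Crb3, a polarity protein, ran at 0.436 to 2.05 CPM (median 0.761), against 27.9 and 27.2 CPM (log2 fold change −4.79 ± 0.37, adjusted p = 1.92e-09). Pkp3, a plakophilin, ran at 28.7 to 54.6 CPM (median 40.4), against 134 and 131 CPM (log2 fold change −1.69 ± 0.17, adjusted p = 1.52e-08). Both were lower in all 6 libraries.

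Among keratins and desmosomal genes, 4 of 22 rose and 4 fell, with a median of 0.24 (0.17 with genes at 0 in a group taken at their bound), and only 2 rose without culture 1. Krt8, a simple epithelial keratin, ran at 1464 to 1938 CPM (median 1808), against 1063 and 1078 CPM (log2 fold change 0.71 ± 0.18, adjusted p = 0.00229). Krt18, its partner, named here after its values were seen, ran at 1706 to 2414 CPM (median 2199), against 2377 and 2360 CPM (log2 fold change −0.15 ± 0.17, adjusted p = 0.508). Krt8 was above the cultures in every tumour library, and Krt18 overlapped with them. Krt14, a basal keratin, ran at 378 to 609.8 CPM (median 467), against 368 and 357 CPM (log2 fold change 0.39 ± 0.21, adjusted p = 0.151), above both cultures in every library and short of the threshold. Krt7, another simple keratin, was lower, at 208 to 672 CPM (median 349), against 3857 and 3651 CPM (log2 fold change −3.30 ± 0.57, adjusted p = 4.17e-05). Pkp1, the plakophilin of stratified epithelia, ran at 522 to 851 CPM (median 736), against 182 and 229.7 CPM (log2 fold change 1.77 ± 0.19, adjusted p = 4.08e-08). Jup and Dsp, the desmosomal plaque proteins plakoglobin and desmoplakin, had log2 fold changes of 0.28 (adjusted p = 0.0667) and −0.12 (adjusted p = 0.729) and were also picked after their values were seen. The 23 listed keratin and desmosomal genes summed to 6446 to 7958 CPM in the tumour cells, below the 9476 to 9539 CPM of the cultures. Luminal mammary genes had 2 of 22 higher (9.1%) and 7 lower (31.8%) with a median of 0.00. Shares over all genes tested were 21.8% higher and 20.6% lower, against 18.2% and 18.2% of the keratin and desmosomal genes.

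**Figure D1:**
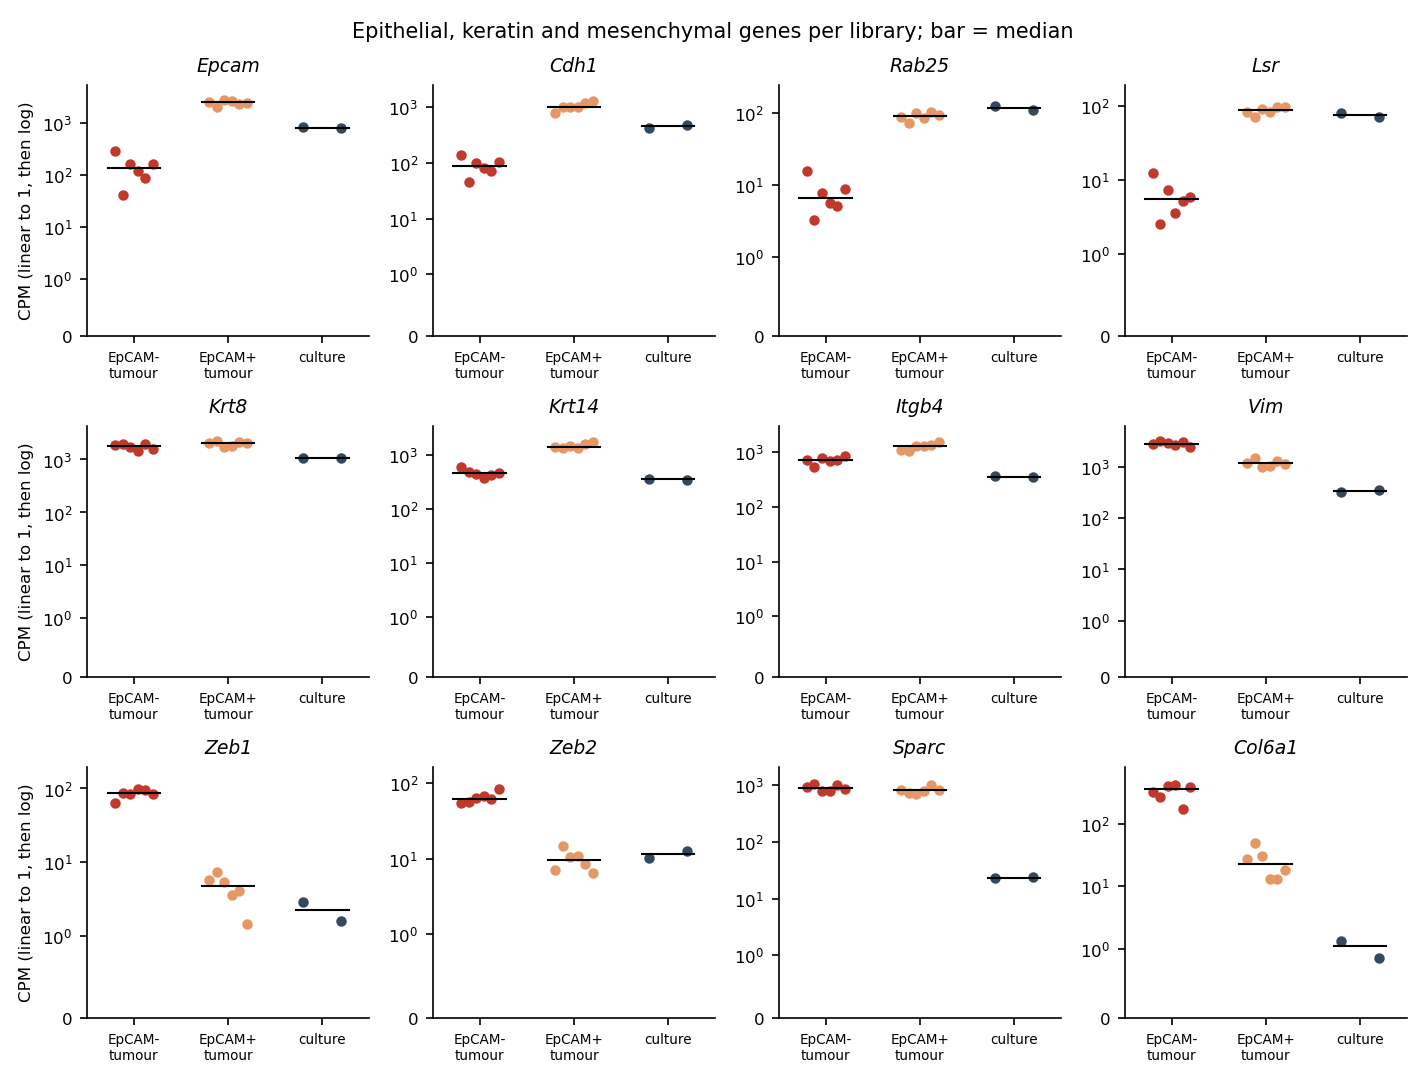
CPM per library (linear to 1 and logarithmic above) of 12 genes in EpCAM-negative tumour cells, EpCAM-positive tumour cells and culture, with 1 point per library (6, 6 and 2) and a bar at the median. Epcam, Cdh1, Rab25 and Lsr were lower in the EpCAM-negative cells than in both other groups, Krt8 was above the culture, and Vim, Zeb1, Zeb2 and Col6a1 were highest in the EpCAM-negative cells.

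Zeb1, Zeb2 and Snai1, repressors of the epithelial state, rose, and so did Trp63, a regulator of basal cells. Of 15 transcription factors of the epithelial-mesenchymal transition, 8 rose and 1 fell (median 1.61, or 1.03 with bounds). Zeb1 ran at 64.3 to 99.2 CPM (median 86.3) in the tumour cells, against 2.88 and 1.59 CPM in the cultures (log2 fold change 5.28 ± 0.43, adjusted p = 3.02e-10). Zeb2 ran at 55.0 to 82.3 CPM (median 61.8), against 10.3 and 12.5 CPM (log2 fold change 2.49 ± 0.42, adjusted p = 2.51e-05). Snai1 ran at 15.2 to 25.5 CPM (median 19.4), against 4.87 and 3.94 CPM (log2 fold change 2.15 ± 0.22, adjusted p = 1.61e-08). All 3 were above the cultures in each of the 6 libraries. Snai2, which belongs to the same family as Snai1, ran at 2.20 to 5.98 CPM (median 4.08), against 3.24 and 3.61 CPM, and the groups overlapped (log2 fold change 0.22 ± 0.40, adjusted p = 0.709). Of 18 basal genes 6 rose (33.3%) and none fell (median 1.18, or 1.15 with bounds), where 21.8% of all genes tested rose and 20.6% fell. Trp63, the transcription factor p63 of basal epithelial cells, ran at 21.8 to 56.1 CPM (median 42.0), against 0.192 and 0.281 CPM (log2 fold change 7.40 ± 0.44, adjusted p = 1.8e-12). Itgb4, the integrin of hemidesmosomes, ran at 535 to 834 CPM (median 720.2), against 359.7 and 351 CPM (log2 fold change 1.01 ± 0.16, adjusted p = 8.63e-06). Both lay above the cultures in every tumour library, as did Zeb1. In bulk samples it cannot be told whether the same cells expressed Zeb1 and Trp63.

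Mesenchymal and matrix genes rose in the tumour cells. Of 32 mesenchymal genes, 24 rose and 2 fell (median 2.95, or 2.82 with bounds). Vim, vimentin, ran at 2531 to 3290 CPM (median 2895), against 333 and 359.5 CPM (log2 fold change 3.08 ± 0.19, adjusted p = 2.37e-12). Sparc, a collagen-binding matrix protein, ran at 779 to 1070 CPM (median 890.5), against 22.9 and 24.0 CPM (log2 fold change 5.26 ± 0.22, adjusted p = 6.33e-15). Ncam1, a neural adhesion molecule gained in the transition, ran at 410.2 to 576 CPM (median 521), against 59.0 and 58.9 CPM (log2 fold change 3.12 ± 0.21, adjusted p = 1.49e-11). The lowest tumour library exceeded the higher culture many times over for each. Fn1, fibronectin, was among the most abundant transcripts at 10250 to 17620 CPM (median 13160), against 1286 and 1505 CPM (log2 fold change 3.27 ± 0.27, adjusted p = 4.95e-10). Spp1, osteopontin, ran at 30020 to 49250 CPM (median 43470), against 7628 and 7373 CPM (log2 fold change 2.47 ± 0.25, adjusted p = 1.15e-08). Both were higher in all 6 libraries.

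Of 30 collagen genes and collagen-modifying enzymes, 22 rose and 3 fell (median 2.81, or 2.49 with bounds). Col6a1, a chain of the beaded-filament collagen VI, ran at 174 to 407 CPM (median 351), against 1.31 and 0.87 CPM (log2 fold change 8.22 ± 0.66, adjusted p = 3.06e-10). Col5a1 ran at 102 to 214 CPM (median 167), against 1.15 and 0.998 CPM (log2 fold change 7.26 ± 0.49, adjusted p = 1.5e-11). P4ha1, the prolyl hydroxylase that stabilises the collagen helix, ran at 424 to 508 CPM (median 467), against 78.6 and 73.5 CPM (log2 fold change 2.62 ± 0.14, adjusted p = 4.82e-13). The groups did not overlap for any of these 3. The 3 that fell, named after their values were seen, included Col4a1 and Col4a2, the basement membrane chains. Col4a1 ran at 84.8 to 179 CPM (median 129), against 439.9 and 477 CPM (log2 fold change −1.79 ± 0.37, adjusted p = 0.000291). Col4a2 ran at 55.9 to 100.1 CPM (median 80.8), against 338 and 406 CPM (log2 fold change −2.21 ± 0.34, adjusted p = 7.9e-06). The third was Col11a1, with a log2 fold change of −1.80 that did not pass without culture 1 (−1.29, adjusted p = 0.178) or with the 8 libraries fitted alone (−1.81, adjusted p = 0.0951).

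Col1a1 and Col3a1, fibrillar chains that fibroblasts also make, rose. Col1a1 ran at 9.77 to 57.7 CPM (median 35.6), against 2.28 and 2.07 CPM (log2 fold change 4.0 ± 0.70, adjusted p = 4.27e-05). Col3a1 ran at 20.4 to 53.5 CPM (median 26.2), against 0.481 and 0.102 CPM (log2 fold change 6.78 ± 1.00, adjusted p = 4.48e-06, and 8.16 and 5.94 without cultures 1 and 2). These levels were far under those of Fn1 and Sparc on the CPM scale, which takes no account of transcript length. Of 38 matrix glycoproteins and proteoglycans, 24 rose and 2 fell (median 2.26, or 2.07 with bounds). Matn2, a matrilin, ran at 302 to 424 CPM (median 338), against 17.3 and 19.3 CPM (log2 fold change 4.27 ± 0.22, adjusted p = 1.31e-13). Tgfbi, a matrix protein induced by TGF-β, ran at 63.1 to 158 CPM (median 93.1), against 2.63 and 1.25 CPM (log2 fold change 5.78 ± 0.56, adjusted p = 6.79e-09, and 6.39 without culture 1). Of 24 metalloproteases and their inhibitors, 14 rose and 5 fell (median 1.38, or 1.22 with bounds). Mmp14, the membrane-anchored collagenase, ran at 394 to 498 CPM (median 441), against 157 and 154 CPM (log2 fold change 1.51 ± 0.12, adjusted p = 1.79e-10). Mmp10, a stromelysin, ran at 4.01 to 15.0 CPM (median 8.17), against 128 and 143 CPM (log2 fold change −3.98 ± 0.43, adjusted p = 3.1e-08). Mmp14 was thus above and Mmp10 below the cultures in every tumour library.

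Of 27 genes of the TGF-β and BMP pathways, 17 rose and 3 fell (median 0.87). Bmp7, a BMP ligand, ran at 189 to 278 CPM (median 213), against 0.449 and 0.589 CPM (log2 fold change 8.71 ± 0.61, adjusted p = 2.65e-11). Tgfb3, a TGF-β ligand, ran at 141 to 221 CPM (median 199), against 39.2 and 44.5 CPM (log2 fold change 2.19 ± 0.17, adjusted p = 1.06e-10). Bmp7 was close to absent in culture, and Tgfb3 was not. Tgfbr3, the co-receptor betaglycan, ran at 39.5 to 57.0 CPM (median 50.9), against 2.12 and 2.66 CPM (log2 fold change 4.38 ± 0.38, adjusted p = 1.08e-09). Both ligands and the co-receptor were above the cultures in all 6 libraries. Plau, the plasminogen activator urokinase, ran the other way at 13.7 to 37.4 CPM (median 22.04), against 101.1 and 127 CPM (log2 fold change −2.33 ± 0.27, adjusted p = 9.85e-08).

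**Figure D2:**
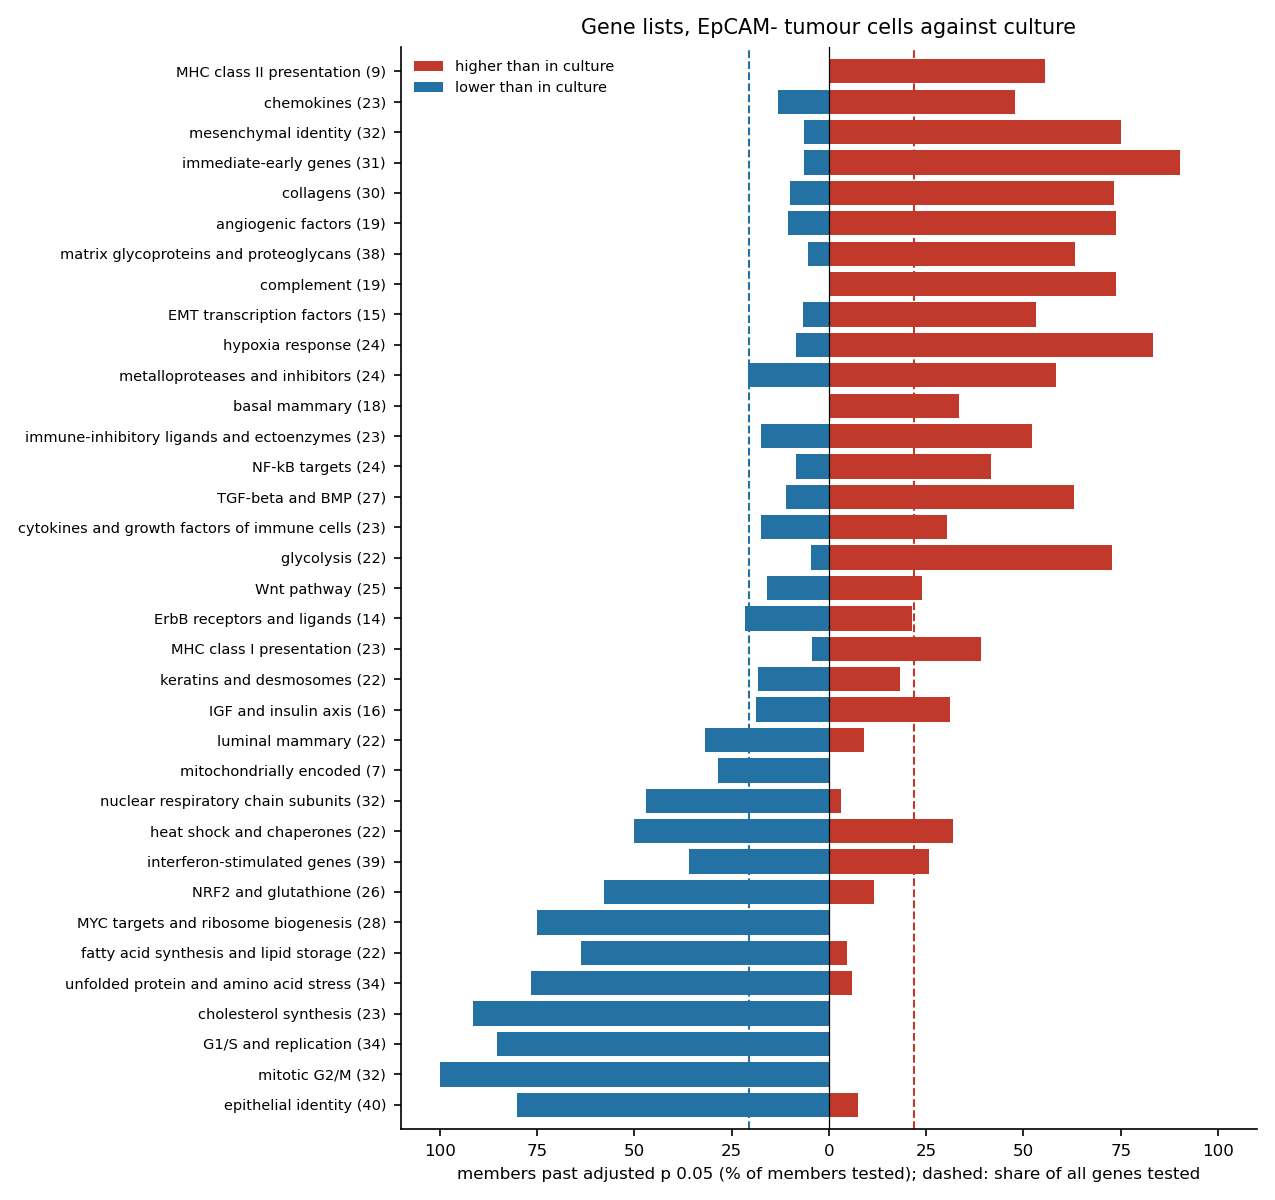
Share of the tested members of each of 35 gene lists, in %, that were higher (right, red) or lower (left, blue) in EpCAM-negative tumour cells than in culture at an adjusted p under 0.05, ordered by median log2 fold change, with the number tested in brackets. Dashed lines mark the shares of all genes tested, 21.8% higher and 20.6% lower. Immediate-early and mesenchymal genes lie near the top, with 28 of 31 and 24 of 32 higher, and epithelial and mitotic genes at the bottom, with 32 of 40 and 32 of 32 lower.

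Immediate-early genes, which are switched on within minutes of a stimulus or of stress, were higher. Of 31, 28 rose and 2 fell (median 2.86). Fos ran at 2842 to 5284 CPM (median 3829) in the tumour cells, against 273 and 233 CPM in the cultures (log2 fold change 3.95 ± 0.26, adjusted p = 1.15e-11). Jun, its partner in AP-1, ran at 1763 to 2685 CPM (median 2212), against 157 and 166 CPM (log2 fold change 3.76 ± 0.22, adjusted p = 1.64e-12). Dusp1, a phosphatase that turns off MAP kinases, ran at 577 to 1338 CPM (median 825), against 28.4 and 22.6 CPM (log2 fold change 5.14 ± 0.40, adjusted p = 1.79e-10). Every tumour library was above both cultures for these. Btg2, an early-response gene that slows proliferation, ran at 616 to 1395 CPM (median 1074), against 34.8 and 32.7 CPM (log2 fold change 4.95 ± 0.34, adjusted p = 1.68e-11). The 2 that fell, Fosl1 and Gadd45b, were named after their values were seen. Gadd45b, a stress gene, had a log2 fold change of −0.63 (adjusted p = 0.00291). Fosl1, another AP-1 member, had a log2 fold change of −1.02 that did not pass without culture 1 (−0.98, adjusted p = 0.0745). The labels describe the 30 min digestion at 37 °C and the sort for tumours and name neither for the cultured cells, and the part of these steps in these levels cannot be told apart from that of growth in the mouse.

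The hypoxia response and glycolysis rose together. Of 24 hypoxia genes, 20 rose and 2 fell (median 1.59). Egln1, the oxygen-sensing prolyl hydroxylase that is itself induced by hypoxia, ran at 143 to 197 CPM (median 176), against 53.1 and 58.5 CPM (log2 fold change 1.64 ± 0.16, adjusted p = 5.45e-09). Pdk1, the kinase that keeps pyruvate out of the mitochondria, ran at 58.7 to 87.4 CPM (median 65.2), against 21.2 and 19.2 CPM (log2 fold change 1.77 ± 0.18, adjusted p = 1.09e-08). Adm, the vasodilator peptide adrenomedullin, ran at 23.1 to 50.2 CPM (median 30.1), against 1.54 and 2.51 CPM (log2 fold change 4.05 ± 0.42, adjusted p = 2.12e-08). Of 22 glycolysis genes, 16 rose and 1 fell (median 0.83). Eno2, an enolase, ran at 54.4 to 87.5 CPM (median 69.5), against 10.3 and 8.01 CPM (log2 fold change 2.96 ± 0.34, adjusted p = 8.11e-08). Pfkp, a phosphofructokinase, ran at 231 to 288 CPM (median 257), against 75.6 and 71.6 CPM (log2 fold change 1.80 ± 0.15, adjusted p = 6.89e-10). All 5 were above the cultures in every tumour library. Of 19 angiogenic factors, 14 rose and 2 fell (median 2.37). Vegfa ran at 463 to 618 CPM (median 524), against 255 and 254 CPM (log2 fold change 1.06 ± 0.19, adjusted p = 7.13e-05). Pdgfc ran at 84.4 to 132 CPM (median 109.6), against 8.79 and 7.32 CPM (log2 fold change 3.76 ± 0.24, adjusted p = 5.76e-12). The one glycolysis gene that fell was Pfkfb4, a regulator of fructose-2,6-bisphosphate picked after its values were seen, at 17.3 to 25.5 CPM (median 19.8), against 83.5 and 103 CPM (log2 fold change −2.17 ± 0.27, adjusted p = 4.52e-07).

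**Figure D3:**
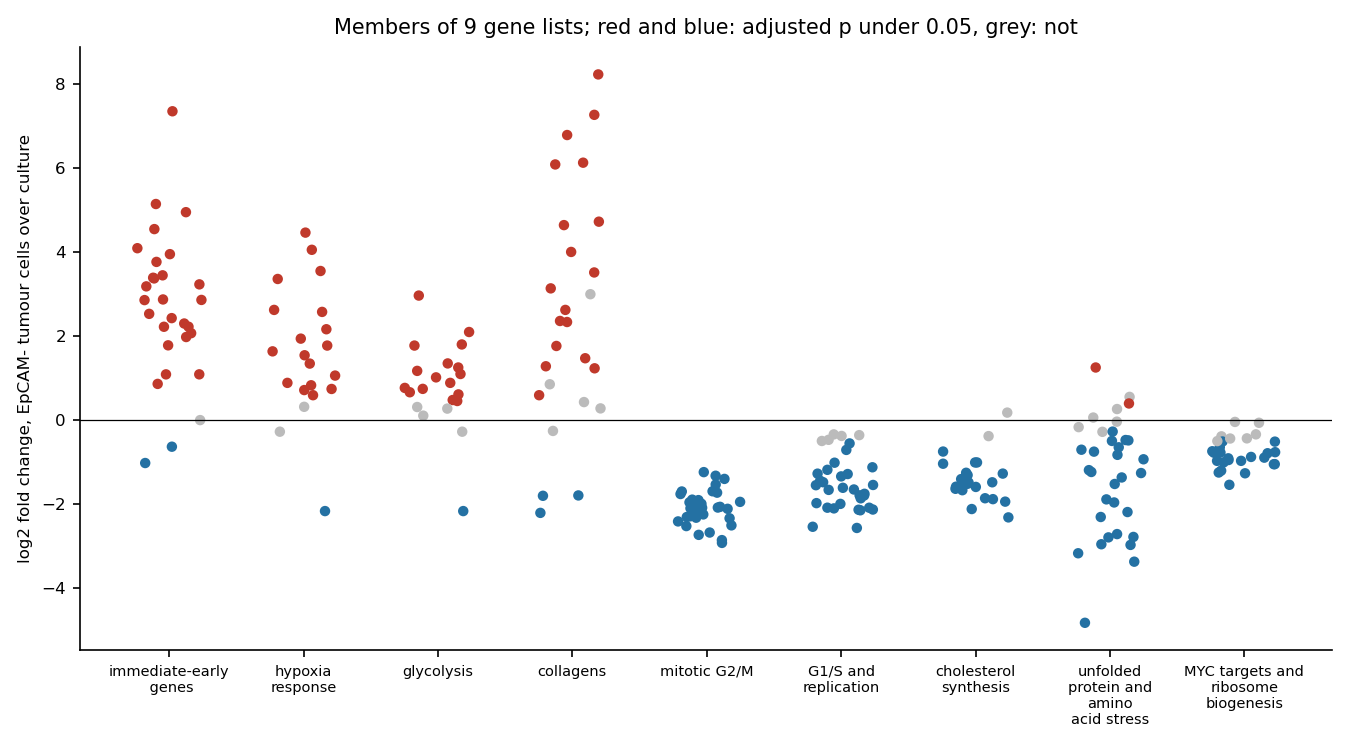
Log2 fold change, EpCAM-negative tumour cells over culture, of tested members of 9 gene lists (1 point per gene). Genes with no more than 3 counts in every library of either group are left out. Red and blue points passed an adjusted p of 0.05, and grey points did not. All 32 mitotic genes lie below 0. Counting the members left out, 28 of 31 immediate-early genes were called higher.

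Genes of cell division were lower in the tumour cells. All 32 mitotic genes fell, with a median log2 fold change of −2.09, where 20.6% of all genes fell. Top2a, the topoisomerase that untangles chromosomes, ran at 111 to 141 CPM (median 121), against 783 and 851 CPM (log2 fold change −2.73 ± 0.23, adjusted p = 5.03e-10). Cdk1, whose promoter is printed above, ran at 48.7 to 64.0 CPM (median 57.8), against 325 and 325 CPM (log2 fold change −2.51 ± 0.22, adjusted p = 1.13e-09). Ube2c, which works with the anaphase-promoting complex, ran at 40.8 to 57.3 CPM (median 49.1), against 379 and 360 CPM (log2 fold change −2.92 ± 0.27, adjusted p = 2.88e-09). The highest tumour library stayed far below the lower culture for these. Mki67, the proliferation marker, ran at 31.1 to 59.5 CPM (median 48.2), against 102 and 163 CPM (log2 fold change −1.53 ± 0.31, adjusted p = 0.000261). Of 34 genes of G1/S and replication, 29 fell and none rose (median −1.58). Rrm2, a subunit of ribonucleotide reductase, ran at 57.2 to 84.4 CPM (median 74.1), against 398 and 461 CPM (log2 fold change −2.57 ± 0.25, adjusted p = 6.5e-09). Mcm2, of the replicative helicase, ran at 90.1 to 117 CPM (median 98.3), against 366 and 369 CPM (log2 fold change −1.86 ± 0.16, adjusted p = 1.23e-09). Ccnd1, cyclin D1, ran at 700.4 to 851 CPM (median 791), against 1258 and 1307 CPM (log2 fold change −0.71 ± 0.11, adjusted p = 5.2e-06). Every tumour library was below both cultures for these 3 as well.

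Of 28 targets of MYC and genes of ribosome biogenesis, 21 fell and none rose (median −0.78). Nolc1, a nucleolar scaffold, ran at 95.1 to 120 CPM (median 102), against 297 and 308 CPM (log2 fold change −1.54 ± 0.10, adjusted p = 1.53e-11). Ncl, nucleolin, ran at 609 to 786 CPM (median 675), against 1357 and 1482 CPM (log2 fold change −1.05 ± 0.10, adjusted p = 8.93e-09). Myc itself ran at 129 to 243 CPM (median 184), against 262 and 239.8 CPM, with the highest tumour library between the cultures (log2 fold change −0.39 ± 0.18, adjusted p = 0.0922). Its level did not pass the test, where 21 of the 28 listed genes did, but it passed without tumour library 1 (−0.51, adjusted p = 0.0282) or 2 (−0.52, adjusted p = 0.0241).

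Sterol and fatty acid synthesis were lower. Of 23 cholesterol genes, 21 fell and none rose (median −1.48). Dhcr7, the last enzyme of the pathway, ran at 78.8 to 128 CPM (median 91.0), against 268 and 259 CPM (log2 fold change −1.48 ± 0.13, adjusted p = 1.11e-09). Msmo1, a sterol demethylase, ran at 126 to 192 CPM (median 163), against 507 and 459.6 CPM (log2 fold change −1.59 ± 0.18, adjusted p = 7.41e-08). Hmgcs1, an early enzyme, ran at 65.2 to 133 CPM (median 102), against 127 and 139.8 CPM, and the groups overlapped (log2 fold change −0.38 ± 0.24, adjusted p = 0.219). Of 22 genes of fatty acid synthesis and lipid storage, 14 fell and 1 rose (median −0.81). Fads2, the desaturase of polyunsaturated fatty acids, ran at 1.61 to 9.49 CPM (median 6.48), against 88.0 and 95.02 CPM (log2 fold change −4.03 ± 0.34, adjusted p = 8.07e-10). Fasn, the fatty acid synthase, ran at 178 to 325 CPM (median 278), against 769.5 and 845 CPM (log2 fold change −1.58 ± 0.15, adjusted p = 5.79e-09). Both were below the cultures in all 6 libraries.

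Most genes of unfolded protein and amino acid stress were lower. Of 34 genes on this list, 26 fell and 2 rose (median −1.06). Psph, which makes serine, ran at 14.8 to 19.6 CPM (median 16.7), against 159 and 145 CPM (log2 fold change −3.17 ± 0.12, adjusted p = 2.11e-15). Mthfd2, of mitochondrial one-carbon metabolism, ran at 28.6 to 56.0 CPM (median 45.2), against 347 and 331 CPM (log2 fold change −2.95 ± 0.20, adjusted p = 1.68e-11). Gars ran at 315 to 373 CPM (median 339), against 941 and 1019 CPM (log2 fold change −1.52 ± 0.11, adjusted p = 4.48e-11). These enzymes were below the cultures in every tumour library. Slc7a11 ran at 0 to 3.51 CPM (median 2.10), against 51.4 and 58.9 CPM (log2 fold change −4.82 ± 0.88, adjusted p = 7.63e-05). The 2 that rose, Dnajb9 and Dnajc3, are chaperones of the endoplasmic reticulum and were named after their values were seen. Dnajb9 ran at 29.0 to 41.6 CPM (median 35.1), against 13.4 and 16.4 CPM (log2 fold change 1.25 ± 0.16, adjusted p = 4.16e-07), and the increase of Dnajc3 did not pass without culture 1 (0.22, adjusted p = 0.291).

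Of 26 NRF2 and glutathione genes, 15 fell and 3 rose (median −0.55). Gclc, the rate-limiting enzyme of glutathione synthesis, ran at 69.5 to 94.7 CPM (median 73.1), against 284 and 282 CPM (log2 fold change −1.88 ± 0.10, adjusted p = 2.2e-13). Gsta4, a glutathione transferase, ran at 8.42 to 12.6 CPM (median 10.8), against 125 and 133 CPM (log2 fold change −3.61 ± 0.20, adjusted p = 6.5e-13). Akr1b8, an aldo-keto reductase, ran the other way at 69.9 to 125 CPM (median 96.8), against 7.37 and 9.37 CPM (log2 fold change 3.51 ± 0.23, adjusted p = 7.91e-12). Shares over all genes tested were 21.8% higher and 20.6% lower. Of 32 nuclear subunits of the respiratory chain, 15 fell and 1 rose (median −0.29). Of 7 mitochondrially encoded genes tested, 2 fell (28.6%) and none rose (median −0.10). Uqcrq, of complex III, ran at 61.1 to 83.3 CPM (median 69.3), against 188 and 167 CPM (log2 fold change −1.31 ± 0.12, adjusted p = 3.18e-09). Of 22 heat shock genes and chaperones, 7 rose and 11 fell (median −0.36). Hspb1, a small heat shock protein, rose, at 18.4 to 50.2 CPM (median 29.5), against 3.27 and 3.46 CPM (log2 fold change 3.25 ± 0.37, adjusted p = 1.05e-07), and Hspd1, the mitochondrial chaperonin, fell, with a log2 fold change of −1.06.

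**Figure D4:**
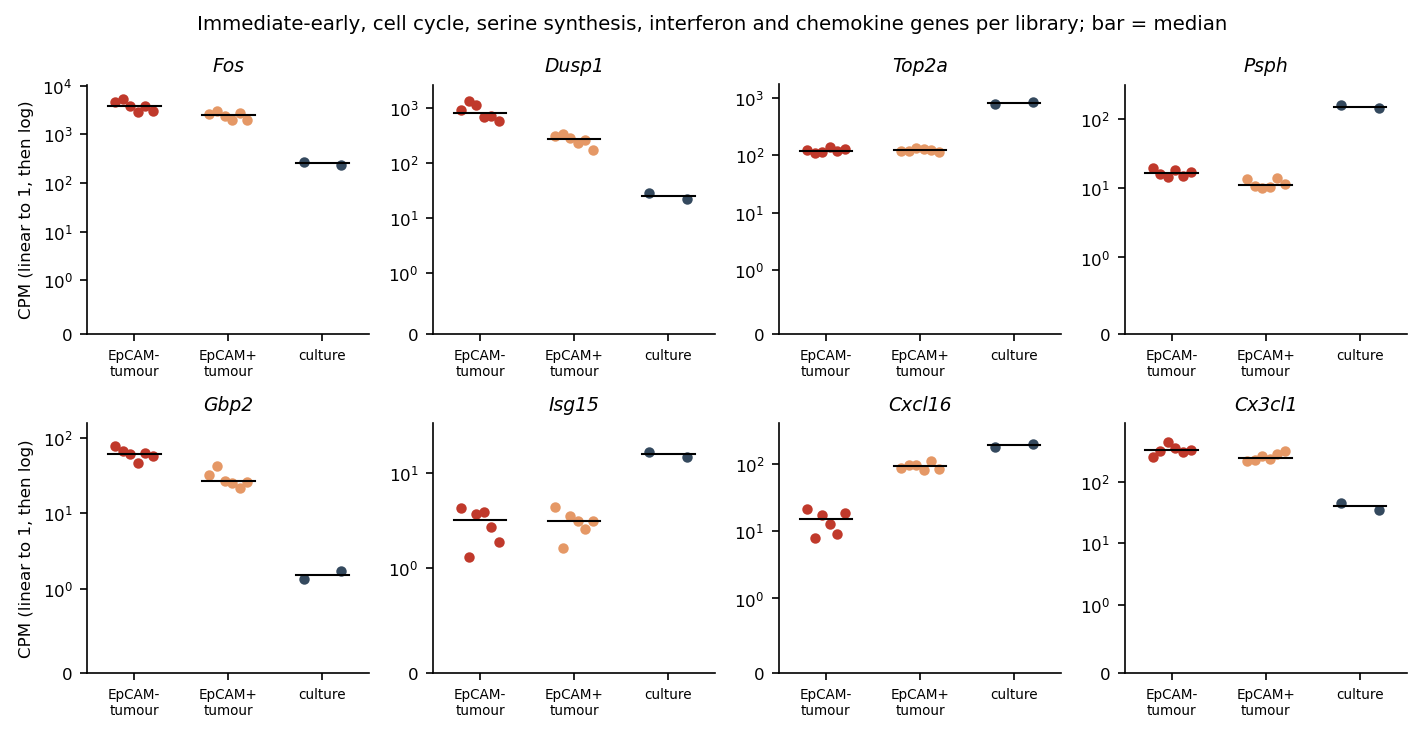
CPM per library (linear to 1 and logarithmic above) of 8 genes in EpCAM-negative tumour cells, EpCAM-positive tumour cells and culture, with 1 point per library and a bar at the median. Fos, Dusp1, Gbp2 and Cx3cl1 lie above the culture in both tumour fractions, and Top2a, Psph, Isg15 and Cxcl16 below it.

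Immune genes changed in both directions. Of 39 interferon-stimulated genes, 10 rose (25.6%) and 14 fell (35.9%), with a median of −0.42, or 0.00 with bounds. Over all genes tested, 21.8% rose and 20.6% fell. Gbp2, a guanylate-binding protein known for its induction by interferon-γ, ran at 46.9 to 76.8 CPM (median 61.2), against 1.35 and 1.72 CPM (log2 fold change 5.31 ± 0.36, adjusted p = 1.28e-11). Gbp7, of the same family, ran at 21.4 to 31.9 CPM (median 25.9), against 4.78 and 3.61 CPM (log2 fold change 2.68 ± 0.23, adjusted p = 1.09e-09). Isg15, a ubiquitin-like modifier induced by type I interferon, ran at 1.31 to 4.32 CPM (median 3.20), against 16.7 and 14.9 CPM (log2 fold change −2.42 ± 0.29, adjusted p = 1.72e-07). Ifit2, which binds viral RNA in the same response, ran at 5.00 to 10.0 CPM (median 6.18), against 26.6 and 24.1 CPM (log2 fold change −1.95 ± 0.23, adjusted p = 1.11e-07). The guanylate-binding proteins were above and the other pair below the cultures in each library.

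Of 23 genes of MHC class I presentation, 9 rose and 1 fell (median 0.46). Psmb8, a catalytic subunit of the immunoproteasome, ran at 9.27 to 15.6 CPM (median 13.4), against 1.41 and 0.819 CPM (log2 fold change 3.57 ± 0.38, adjusted p = 2.69e-08). Tapbp, which loads peptides, ran at 299 to 352 CPM (median 312), against 142 and 151 CPM (log2 fold change 1.12 ± 0.10, adjusted p = 2.94e-09). B2m, the light chain, ran at 269 to 384 CPM (median 354), against 467 and 402 CPM (log2 fold change −0.34 ± 0.25, adjusted p = 0.29). B2m lay below the cultures in each library and passed only with the 8 libraries fitted alone (−0.36, adjusted p = 0.0427). The gene that fell, H2-K1, a class I heavy chain that can share reads with its paralogs, was named after its values were seen and ran at 200.2 to 267 CPM (median 227), against 604 and 526 CPM (log2 fold change −1.27 ± 0.22, adjusted p = 4.5e-05).

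Genes of antigen presentation by MHC class II and of complement rose beside markers of macrophages. Of 9 class II genes, 5 rose and none fell (median 4.52, or 2.93 with bounds), and 3 rose without culture 1 and 3 without culture 2. Cd74, the invariant chain, ran at 40.5 to 121 CPM (median 55.0), against 0.481 and 0.691 CPM (log2 fold change 6.74 ± 1.17, adjusted p = 3.98e-05). H2-Aa ran at 15.8 to 49.0 CPM (median 22.96), against 0.192 and 0.153 CPM (log2 fold change 7.25 ± 1.24, adjusted p = 3.16e-05). Of 19 complement genes, 14 rose and none fell (median 2.13). C1qa, a subunit of C1q made mainly by macrophages, ran at 6.47 to 20.4 CPM (median 8.21) in the tumour cells and had no count in the cultures, at least 108-fold higher. Tumour library 1 was the highest for all 3. Of the 22 macrophage markers, all tested, 21 rose and 1 fell. Their summed level ran from 145.1 to 393.5 CPM in the tumour cells (median 173.5, library 1 highest), against 33.4 to 37.5 CPM in the cultures, where 7 of the 22 had no count. Csf1r, the receptor of macrophages for CSF1, ran at 12.3 to 26.7 CPM (median 14.6), against 1.83 and 1.41 CPM (log2 fold change 3.40 ± 0.49, adjusted p = 3.44e-06). Cd68, the marker that fell, was named after its values were seen and ran at 11.6 to 19.2 CPM (median 15.2), against 34.6 and 30.7 CPM in the cultures, where it made up most of the sum (log2 fold change −1.06 ± 0.23, adjusted p = 0.000562). The part of these markers in the class II and complement levels was not tested.

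Of 23 chemokines, 11 rose and 3 fell (median 3.78, or 2.15 with bounds), and 6 rose without culture 2. Cx3cl1, the ligand of CX3CR1 on monocytes and lymphocytes, ran at 258 to 444 CPM (median 327), against 44.8 and 35.5 CPM (log2 fold change 3.06 ± 0.29, adjusted p = 4.93e-09). Cxcl16, the ligand of CXCR6 on T cells, ran at 7.94 to 21.4 CPM (median 15.0), against 179 and 198 CPM (log2 fold change −3.70 ± 0.27, adjusted p = 4.18e-11). These membrane-anchored chemokines thus moved in opposite directions, each in all 6 libraries. Of 23 cytokines and growth factors of immune cells, 7 rose (30.4%) and 4 fell (17.4%), with a median of 0.84, or 0.50 with bounds. The shares over all genes tested were 21.8% and 20.6%. Il33, an alarmin, ran at 35.9 to 66.7 CPM (median 42.3), against 3.01 and 3.66 CPM (log2 fold change 3.78 ± 0.34, adjusted p = 1.93e-09). Csf3, which stimulates neutrophil production, ran at 6.55 to 13.9 CPM (median 9.43), against 97.0 and 83.4 CPM (log2 fold change −3.26 ± 0.30, adjusted p = 2.9e-09). Il1a, interleukin-1α, ran at 1.33 to 8.32 CPM (median 2.74), against 78.5 and 85.2 CPM (log2 fold change −4.62 ± 0.60, adjusted p = 7.03e-07). Il33 was above and the other two below the cultures in every tumour library. Of 24 NF-κB targets, 10 rose and 2 fell (median 0.89, or 0.61 with bounds), with 4 lower without tumour library 2.

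Of 23 immune-inhibitory ligands and ectoenzymes, 12 rose and 4 fell (median 1.06). Nt5e, the ectoenzyme CD73 that makes adenosine, ran at 1206 to 1708 CPM (median 1419), against 332 and 376 CPM (log2 fold change 2.02 ± 0.14, adjusted p = 3.31e-11). Cd47, which signals to SIRPα on phagocytes, ran at 248 to 304 CPM (median 271), against 112 and 102 CPM (log2 fold change 1.36 ± 0.11, adjusted p = 2.15e-10). Cd200, which signals to an inhibitory receptor of myeloid cells, ran at 352 to 461 CPM (median 374), against 136 and 151 CPM (log2 fold change 1.44 ± 0.14, adjusted p = 4.89e-09). All 3 were above the cultures in each library.

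Counts on the lists of growth factor genes stand beside shares of 21.8% higher and 20.6% lower over all genes tested. Of 14 ErbB receptors and ligands, 3 rose and 3 fell (median 0.75). Hbegf, a ligand of EGFR, ran at 219.9 to 479 CPM (median 291), against 88.1 and 89.7 CPM (log2 fold change 1.85 ± 0.28, adjusted p = 5.65e-06). Erbb3, the partner of Her2, ran at 0.611 to 14.2 CPM (median 9.38), against 61.7 and 67.8 CPM (log2 fold change −2.88 ± 0.51, adjusted p = 5.43e-05). Of 16 genes of the IGF and insulin axis, 5 rose and 3 fell (median 0.00), with 3 higher without culture 1. Igfbp7, a secreted binding protein, ran at 25 to 49.6 CPM (median 38.4), against 1.38 and 0.793 CPM (log2 fold change 5.13 ± 0.34, adjusted p = 7.91e-12). Of 25 genes of the Wnt pathway, 6 rose and 4 fell (median 0.76), with 3 higher without culture 1. Sfrp1, a secreted Wnt inhibitor, ran at 5.42 to 16.01 CPM (median 7.29), against 60.7 and 57.4 CPM (log2 fold change −2.78 ± 0.48, adjusted p = 4.13e-05).

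The sort left out cells stained for CD45, CD90 or CD105, which are carried by leukocytes, endothelial cells and many fibroblasts. Markers of such cells and of others were summed per library. Their calls stand beside shares of 21.8% higher and 20.6% lower over all genes tested. The 18 endothelial markers summed to 35.6 to 64.1 CPM in the tumour cells, against 9.11 to 10.6 CPM in the cultures. Of 17 tested, 4 rose and 1 fell, with 2 higher without culture 2. The 18 fibroblast markers summed to 785.1 to 900.9 CPM, against 512.9 to 535.9 CPM, and 9 of 14 tested rose, with 4 higher without culture 1 and 4 without culture 2. Several of these markers, such as Pdgfra at 75.0 to 143 CPM (median 109.7) against 11.5 and 14.7 CPM, are also genes of mesenchymal tumour cells. The 8 erythroid markers summed to 3.11 to 19.4 CPM, against 0.205 to 0.353 CPM. T and NK cell markers summed to 1.58 to 3.37 CPM in the tumour cells, against 1.64 to 2.18 CPM in the cultures. Of these 17, 10 had no count in any tumour library, Cd3d, Cd3e and Cd8a among them, and 15 had none in either culture. Prf1 and Klrb1c had 20 and 17 counts in the tumour libraries and none in the cultures, and Lck had 3 against 26. B cell markers stayed at or below 0.579 CPM in the tumour cells. The 12 neutrophil markers summed to 12.3 to 24.6 CPM, against 30.5 to 32.0 CPM, while 2 of 9 tested were higher and 1 lower (median 2.21, or 1.53 with bounds), with 1 higher without culture 1. Of the other lists, 3 of 10 pericyte and smooth muscle markers tested were higher and none lower. Of 5 dendritic cell markers, 2 were called higher and none lower, but none was higher without culture 1 or without culture 2, and 1 was lower without culture 2 or without tumour library 4 or 5. Without tumour library 2, 3 or 6, 1 was higher. Of 6 Schwann and nerve markers 1 was higher and 2 were lower, with 1 lower without culture 1 or without tumour library 4 or 6. The part of any of these cells in the results was not tested.

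**Figure D5:**
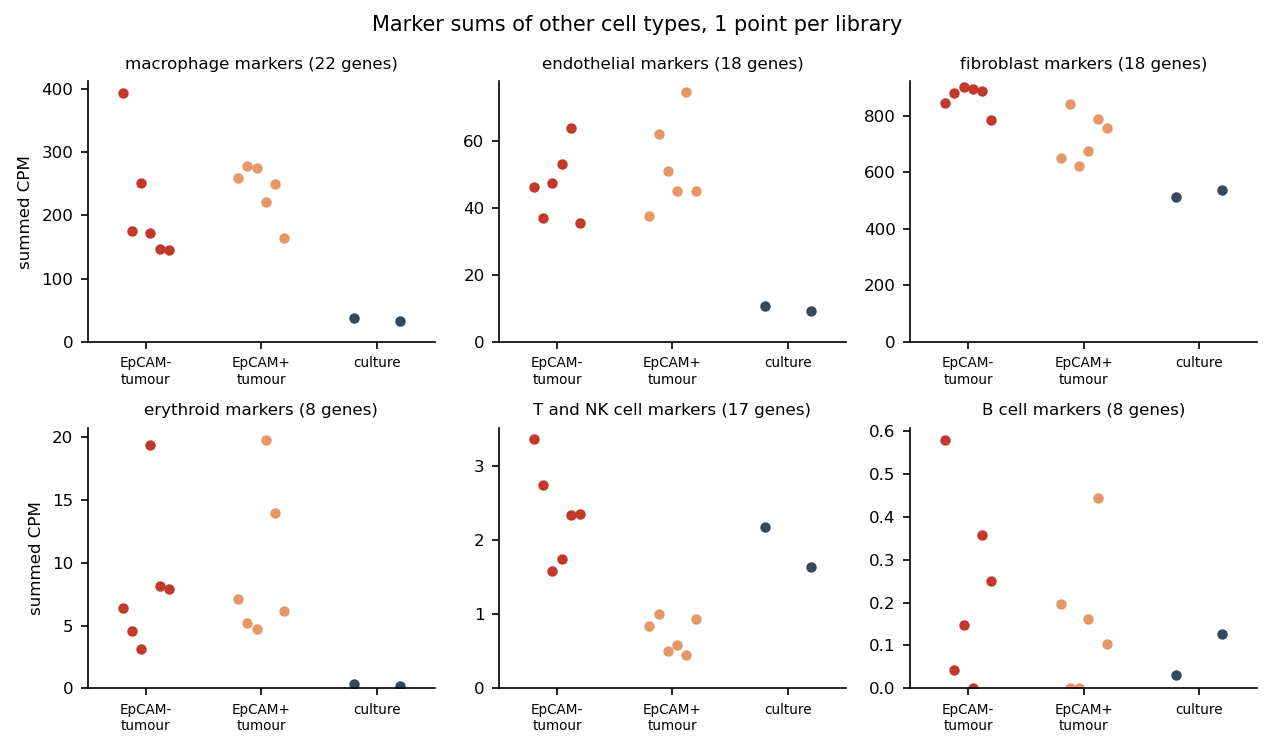
Summed CPM per library of the markers of 6 other cell types in EpCAM-negative tumour cells, EpCAM-positive tumour cells and culture, with 1 point per library (6, 6 and 2). Macrophage sums run from 145.1 to 393.5 CPM in the EpCAM-negative cells and from 33.4 to 37.5 CPM in culture.

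EpCAM-negative cells were also set against the EpCAM-positive cells of the same treatment and day, which had been through the same digestion and sort. In the EpCAM-negative cells 2365 genes (14.2%) were higher and 2373 (14.3%) lower. Of the 40 epithelial genes, 38 were lower and none higher, with a median log2 fold change of −3.28. The gate parted these fractions on EpCAM protein, an epithelial marker, so that this difference is not independent of the sort. Cdh1 ran at 46.4 to 138 CPM (median 89.8) in EpCAM-negative and 789.6 to 1281 CPM (median 1016) in EpCAM-positive cells (log2 fold change −3.54 ± 0.21, adjusted p = 3.96e-12). Zeb1 ran at 64.3 to 99.2 CPM (median 86.3) in EpCAM-negative and 1.45 to 7.41 CPM (median 4.73) in EpCAM-positive cells (log2 fold change 4.22 ± 0.25, adjusted p = 3.96e-12). Vim ran at 2531 to 3290 CPM (median 2895) in EpCAM-negative and 1032 to 1504 CPM (median 1197) in EpCAM-positive cells (log2 fold change 1.27 ± 0.11, adjusted p = 1.8e-09). The fractions did not overlap for any of these. Col6a1 was higher in EpCAM-negative cells by 3.68 and Col5a3 by 5.57 on the log2 scale, and 11 of 30 collagen genes were higher and 6 lower.

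Krt8, Sparc and Trp63, which all rose against culture, did not pass the test between the fractions. Krt8 ran at 1464 to 1938 CPM (median 1808) in EpCAM-negative and 1717 to 2187 CPM (median 2028) in EpCAM-positive cells (log2 fold change −0.18 ± 0.12, adjusted p = 0.297), and passed with same-numbered libraries paired in a replicate block (−0.19, adjusted p = 0.0182). Sparc ran at 779 to 1070 CPM (median 890.5) in EpCAM-negative and 693 to 995 CPM (median 810.5) in EpCAM-positive cells (log2 fold change 0.15 ± 0.11, adjusted p = 0.343). Trp63 ran at 21.8 to 56.1 CPM (median 42.0) in EpCAM-negative and 22.3 to 39.2 CPM (median 33.2) in EpCAM-positive cells (log2 fold change 0.38 ± 0.17, adjusted p = 0.105, and 0.50 with adjusted p = 0.0116 without EpCAM-negative library 5). For these the ranges of the fractions overlapped. Of the 22 keratin and desmosomal genes tested, 13 were lower and 1 higher in EpCAM-negative cells, with a median of −1.49. Of the 32 mitotic genes, 10 were lower and none higher in EpCAM-negative cells, and Top2a had a log2 fold change of −0.01 between the fractions. Of the 31 immediate-early genes, 23 were higher and 1 lower. Fos ran at 2842 to 5284 CPM (median 3829) in EpCAM-negative and 1997 to 3025 CPM (median 2526) in EpCAM-positive cells (log2 fold change 0.66 ± 0.14, adjusted p = 0.000959). Dusp1 ran at 577 to 1338 CPM (median 825) in EpCAM-negative and 173 to 336 CPM (median 272) in EpCAM-positive cells (log2 fold change 1.76 ± 0.21, adjusted p = 2.82e-07). Fos overlapped between the fractions and Dusp1 did not. Of the 34 genes of unfolded protein and amino acid stress, 15 were higher and 8 lower, and Psph was higher by 0.53, although both fractions lay below the culture for it. Of the 22 glycolysis genes, 15 were higher and none lower. Macrophage markers summed to 145.1 to 393.5 CPM in EpCAM-negative and 163.4 to 278.5 CPM in EpCAM-positive cells, ranges that overlapped.

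The EpCAM-negative cells of control tumours differ from those described here in treatment and in day, 47 against 20, which cannot be told apart. In the cells of depleted tumours 3639 genes (21.9%) were higher and 3862 (23.2%) lower than in those of control tumours. Epcam ran at 40.0 to 284 CPM (median 136) in depleted and 1.06 to 2.39 CPM (median 1.59) in control tumours (log2 fold change 6.42 ± 0.36, adjusted p = 1.91e-13). Of the 40 epithelial genes 26 were higher and 5 lower in depleted tumours, with a median of 1.48. Both groups were gated on EpCAM protein. In such bulk samples, the share of cells that express these genes and the RNA per cell cannot be told apart. Zeb1 ran at 64.3 to 99.2 CPM (median 86.3) in depleted and 69.3 to 94.1 CPM (median 85.5) in control tumours, ranges that overlapped (log2 fold change 0.02 ± 0.21, adjusted p = 0.939). Bmp7 ran at 189 to 278 CPM (median 213) in depleted and 0.0696 to 0.974 CPM (median 0.159) in control tumours (log2 fold change 9.41 ± 0.38, adjusted p = 1.04e-15, and 10.26 without control library 2). Col1a1 ran at 9.77 to 57.7 CPM (median 35.6) in depleted and 448 to 2462 CPM (median 1663) in control tumours (log2 fold change −5.47 ± 0.43, adjusted p = 1e-10). Of the 39 interferon-stimulated genes 1 was higher and 35 were lower in depleted tumours, with a median of −2.22. Isg15 ran at 1.31 to 4.32 CPM (median 3.20) in depleted and 15.9 to 30.1 CPM (median 22.3) in control tumours (log2 fold change −2.96 ± 0.24, adjusted p = 1.4e-10). The groups did not overlap for it or for Col1a1, Bmp7 and Epcam. Macrophage markers summed to 145.1 to 393.5 CPM in depleted and 26.8 to 49.6 CPM in control tumours, and their part in these differences was not tested.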

How the data were processed

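RNA was sequenced from sorted tumour cells and from the cultured line, and the deposited table holds raw read counts for 47730 features in 26 libraries. The authors used STAR, mouse build mm9 and DESeq2 1.22.2, per the submitters' processing notes. No source used here gives the STAR version, the counting program or its use of strand, so that overlapping or antisense genes may share reads. Per the labels' protocols, 0.1 to 1.0 ng of RNA was amplified with 10 to 14 PCR cycles, and no molecular identifiers are named. Intervals and floors cover counting error only. Of 47729 Ensembl IDs, 47224 matched a symbol. The authors' normalized table was not used.

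Depth was 17559520 to 38740143 counts per library. Counts were filtered with filterByExpr, scaled by TMM and fitted with edgeR 4.0.16 in R 4.3.3 (limma 3.58.1), with 1 mean per group over all 26 libraries and adjustment over 16637 features. The contrasts were EpCAM-negative depleted cells against culture, against EpCAM-positive depleted cells and against EpCAM-negative control cells. Lists were described by counts and medians, and a gene at 0 in a group was taken at a floor of 3 counts per library.

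The genes named came from 3 sources. First were the largest changes that passed the test, up to 12 in each direction, where the higher group averaged 10 CPM or more and neither culture lay within the tumour libraries, leaving out predicted genes and pseudogenes. Then came up to 4 genes per list with the smallest p among those that passed, and 24 set genes. Not all that qualified are printed, and some are not reported here. The members, lists and named genes were chosen with earlier results of these data known.

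Same-numbered EpCAM-negative and EpCAM-positive libraries of depleted tumours deviated together, with correlations of 0.117 to 0.414, each highest with its own number. The numbers were thus taken to pair these samples. The main fit left this pairing out, and only the replicate block used it. The 2 cultures gave 0.137 and −0.0934 with the tumour libraries of their number and were not paired. Alternatives were DESeq2 1.42.0, its size factors in edgeR, no filter, at least 1 CPM in at least 6 libraries, only the groups compared, a replicate block, and each library left out.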

Additional observations from a re-analysis of the deposited data

Results flagged for a closer look

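In the group of 6 EpCAM-negative libraries, 1 library stood apart from the other 5 for 9 of the 130 genes named above, by the gap to its nearest neighbour as a share of the group's range, set against Dixon's critical value of 0.625. Chance alone does this in about 1 of 20 groups. Library 1 was the highest for Cldn4 (0.844), Il1a (0.713), Cd74 (0.693), C1qa (0.643) and Mmp12 (0.625). It also had the highest Epcam level and the highest sum of macrophage markers. Library 5 was the highest for Adamts8 (0.896), library 4 for Ifit2 (0.662) and Dhcr7 (0.647), and library 3 for Thy1 (0.644). The Thy1 levels rest on a few reads. No library was left out for this.

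For 5 named genes the EpCAM-negative and the EpCAM-positive cells of depleted tumours lay on opposite sides of the culture, each past the threshold of edgeR's quasi-likelihood test, and the difference between the fractions passed it too. These genes were lower than in culture in EpCAM-negative cells and higher in EpCAM-positive cells. For Col11a1 and Erbb2 the decrease in EpCAM-negative cells did not pass in every setting, as given above. The difference, EpCAM-negative minus EpCAM-positive on the log2 scale, was −4.41 for Col11a1, −4.12 for Epcam, −3.54 for Cdh1, −2.34 for Pkp3 and −1.12 for Erbb2. The gate selected on EpCAM protein, so the value for Epcam describes the sort. Both fractions were set against the same 2 cultures.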

How the results depend on the processing

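Against culture, 3628 genes were higher and 3424 lower. Without culture replicate 1, 2316 were higher and 2525 lower, with the remaining culture assumed to vary like the other groups; over all libraries left out in turn, the counts ran from 2316 to 3493 higher and from 2525 to 3685 lower. The other settings stayed within 1.5 times of the counts, with 3903 higher and 3492 lower in DESeq2, 3005 and 3487 with no filter on low counts, and 3359 and 3289 with the 8 libraries alone. A replicate block over all 26 libraries ties each culture to the tumour libraries of its number, although the numbers were not found to pair them; with it, 3338 were higher and 3189 lower than in culture. That block gave H2-Aa a log2 fold change of 7.92, where it was 7.25 without the block. It also put the rat Neu entry (−0.53, adjusted p = 0.0314) and Krt14 (0.52, adjusted p = 0.041) past the threshold. With the replicate block over the 12 libraries of depleted tumours, 2377 were higher and 2436 lower in EpCAM-negative than in EpCAM-positive cells, against 2365 and 2373 without it. Between the main fit and any setting, no named gene that passed the test in either changed direction. Sign changes of genes that passed in neither were not counted, and some genes had no value in a setting. Of the values of named genes over all settings, 4484 kept their side of the threshold, 84 lost the call and 22 gained it, and of the list counts 68 moved by over 1.5 times and 1276 did not. With the size factors of DESeq2 in edgeR, log2 fold changes against culture shifted by a median of −0.016. With no filter on low counts the median shift was −0.055. Precision against culture is limited by its 2 libraries, and fold changes of genes with a few counts in culture by depth.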
